A study of Arabidopsis thaliana with 8 samples.

Results

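The DREB and ZAT stress transcription factors were followed in imbibed seeds of Arabidopsis thaliana as 10 genes taken by locus from a table of 33279 genes: DREB2A (AT5G05410), DREB2B (AT3G11020), DREB2C (AT2G40340), DREB1A (AT4G25480), DREB1B (AT4G25490), DREB1C (AT4G25470), RAP2.6 (AT1G43160), RAP2.4 (AT1G78080), ZAT10 (AT1G27730) and ZAT12 (AT5G59820). Seeds were of the Columbia-0 wild type (Col-0) or of serk1-1, a mutant line in the same ecotype named after SERK1, which encodes a leucine-rich repeat receptor kinase. All seeds were surface-sterilized with ethanol and imbibed for 24 h in liquid Murashige and Skoog medium, either without addition (control) or with 200 mM NaCl. Each of the 4 combinations of genotype and medium had 2 libraries, which the labels call biological replicates. No label gives the kind of mutation in serk1-1, and whole seeds were used, so each value is an average over embryo, endosperm and seed coat. The design asks how transcript levels respond to NaCl in each genotype and how the genotypes differ in each medium.

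Transcript levels are in FPKM, fragments scaled by transcript length and by the mapped fragments of a library, so levels of different genes can be set side by side. Library totals were 777936 to 821247 FPKM in the 4 Col-0 libraries and 885375 to 901215 FPKM in the 4 serk1-1 libraries, with no overlap. In a library 18571 to 20648 genes were above 0, and the depth in fragments is unknown. Replicates of a group had a Pearson correlation of 0.979 to 0.991 across genes on the log2 scale. SERK1 itself (AT1G71830) was at 1.06 to 2.70 FPKM in the 4 Col-0 libraries and at 1.05 to 1.53 FPKM in the 4 serk1-1 libraries. These ranges overlap, and a transcript of unchanged level can still come from a mutated gene, so SERK1 does not check the genotype labels here.

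DREB proteins carry an AP2/ERF DNA-binding domain and bind the dehydration-responsive element (DRE), whose core letters are CCGAC, in promoters of stress-protective genes. The DREB1 genes, also called CBF, are known for rapid induction by cold, and the DREB2 genes for induction by dehydration, salt and heat. DREB2A protein is degraded in unstressed cells, so its transcript level alone does not give its activity. RAP2.4 belongs to the DREB branch of the family and RAP2.6 to the ERF branch. ZAT10 and ZAT12 are C2H2 zinc finger proteins with an EAR repression motif, and they are induced in leaves by oxidative stress, wounding, salt and cold. In seeds, abscisic acid signalling and the maturation programme overlap with these osmotic stress pathways. Many stress genes answer to abscisic acid through the abscisic acid-responsive element (ABRE), whose core letters are ACGTG.

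The 250 bases before the annotated start of 5 of the genes are given below in the orientation of the gene, from the RefSeq sequence of TAIR10.1. They are the 3 DREB2 genes, RAP2.6 and ZAT10, the tested genes whose window holds an ABRE core. Capitals mark the ABRE core on either strand (ACGTG or CACGT) and the DRE core on the strand shown (CCGAC).
DREB2A promoter, chr5:1601955-1602204, plus strand: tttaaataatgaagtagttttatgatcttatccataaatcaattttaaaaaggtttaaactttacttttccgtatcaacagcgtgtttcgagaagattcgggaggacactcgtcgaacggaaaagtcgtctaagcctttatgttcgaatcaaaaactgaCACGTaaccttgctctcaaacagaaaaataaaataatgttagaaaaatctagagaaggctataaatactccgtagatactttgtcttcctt
DREB2B promoter, chr3:3455105-3455354, plus strand: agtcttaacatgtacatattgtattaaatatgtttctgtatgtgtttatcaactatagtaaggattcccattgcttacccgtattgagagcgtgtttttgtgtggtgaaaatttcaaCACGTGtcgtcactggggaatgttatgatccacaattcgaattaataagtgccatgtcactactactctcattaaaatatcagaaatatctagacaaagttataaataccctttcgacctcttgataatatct
DREB2C promoter, chr2:16850495-16850744, minus strand: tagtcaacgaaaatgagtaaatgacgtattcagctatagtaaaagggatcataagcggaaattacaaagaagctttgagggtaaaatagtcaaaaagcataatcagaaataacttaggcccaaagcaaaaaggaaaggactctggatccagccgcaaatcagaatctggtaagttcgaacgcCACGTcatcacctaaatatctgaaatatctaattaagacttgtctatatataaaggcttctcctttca
RAP2.6 promoter, chr1:16263555-16263804, plus strand: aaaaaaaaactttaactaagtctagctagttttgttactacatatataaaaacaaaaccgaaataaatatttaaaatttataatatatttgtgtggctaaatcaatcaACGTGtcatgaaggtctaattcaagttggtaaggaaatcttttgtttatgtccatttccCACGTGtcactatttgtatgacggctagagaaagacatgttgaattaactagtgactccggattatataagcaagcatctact
ZAT10 promoter, chr1:9649324-9649573, minus strand: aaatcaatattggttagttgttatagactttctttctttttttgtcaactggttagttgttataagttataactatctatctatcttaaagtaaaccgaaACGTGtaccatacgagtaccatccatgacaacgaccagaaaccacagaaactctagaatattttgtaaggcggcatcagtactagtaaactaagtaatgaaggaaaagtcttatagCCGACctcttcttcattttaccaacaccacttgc

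An ABRE core was found in the windows of 6 of the 10 genes, the 5 shown and DREB1C, and in 22.9% of the 27443 protein-coding promoters of this length. In DREB2B, DREB1C and RAP2.6 it lies within the palindromic G-box CACGTG, where both strands give a match, and 6.5% of all promoters hold that G-box. RAP2.6 has a further ABRE core 142 to 138 bases before the start. ZAT10 was the one gene of the 10 with a DRE core, 34 to 30 bases before the start, and with a GCC box (GCCGCC or its complement GGCGGC), motifs held by 12.0% and 1.9% of all promoters. The W-box core (TTGAC or GTCAA) was found in DREB2C, DREB1C, ZAT10 and ZAT12, and in 44.9% of all promoters. Letters of the heat shock element (GAANNTTC) were found in DREB2A, DREB1C and ZAT12 and in 9.6% of all promoters. CGCG, the core bound by the calmodulin-binding CAMTA factors, was found in DREB1C and ZAT12 and in 10.1% of all promoters. DREB1A, DREB1B and RAP2.4 had none of these letters in this window. A match of letters does not show binding, and its absence says nothing of sites farther away.

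**Figure D1:**
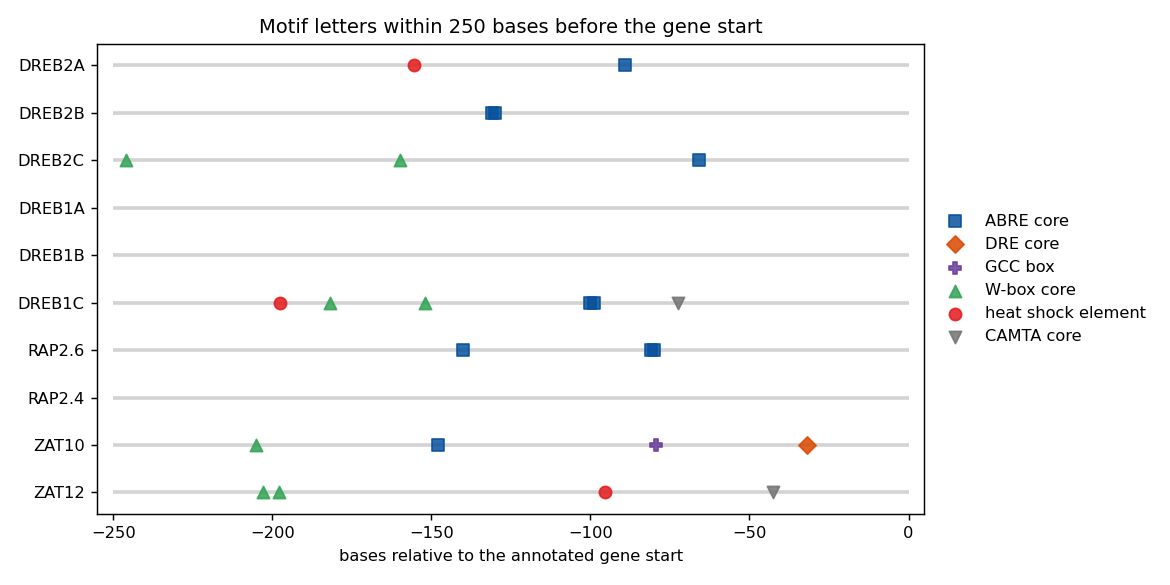
Positions of motif letters in the 250 bases before the annotated start of each of the 10 genes (x axis, bases relative to the start; 1 line per gene, 1 symbol per match on either strand). Touching squares are the 2 overlapping ABRE core matches of a G-box; the lines of DREB1A, DREB1B and RAP2.4 are empty.

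DREB2A, the best studied salt and heat inducible activator of the group, lies at chr5:1602205-1604112 on the plus strand. It was at 112 and 181 FPKM in the 2 Col-0 control libraries and at 256 and 373 FPKM in those with NaCl. In serk1-1 it was at 122 and 64.4 FPKM in control seeds and at 169 and 96.5 FPKM with NaCl. Both Col-0 libraries with NaCl were above the other 6, and the other 3 groups overlapped each other in the order Col-0 control, serk1-1 with NaCl, serk1-1 control. A gene on the opposite strand, AT5G05420, overlaps DREB2A. That gene was at no more than 1.98 FPKM, and no strand setting is given, so its reads cannot be told from those of DREB2A.

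DREB2B, the close paralog of DREB2A (chr3:3455355-3457342, plus strand), was lower in level and more regular between replicates. Its level was 23.0 and 15.7 FPKM in Col-0 control seeds and 63.1 and 45.1 FPKM with NaCl. The serk1-1 libraries held 8.09 and 5.76 FPKM without NaCl and 18.0 and 11.8 FPKM with it. Col-0 with NaCl was therefore highest and serk1-1 control lowest, each apart from the rest, while Col-0 control and serk1-1 with NaCl overlapped. TBL32, on the opposite strand, overlaps DREB2B and was at 7.64 to 11.8 FPKM, a level not far from that of DREB2B in serk1-1. Reads of these 2 genes cannot be told apart without strand.

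DREB2C, the third of this subgroup and known for heat tolerance in overexpressing plants (chr2:16848160-16850494, minus strand), separated by genotype. It was at 82.9 and 53.6 FPKM in Col-0 control seeds and at 88.6 and 88.5 FPKM with NaCl. In serk1-1 the values were 27.4 and 5.29 FPKM without NaCl and 28.2 and 9.65 FPKM with it. All 4 Col-0 libraries were above all 4 serk1-1 libraries, and the 2 serk1-1 groups overlapped. The replicates of serk1-1 differed by 5.18 times without NaCl and 2.92 times with it, replicate 2 being the lower.

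Summed, the DREB2 transcripts came to 218 and 251 FPKM in Col-0 control seeds and to 408 and 506 FPKM in Col-0 with NaCl. In serk1-1 the sums were 158 and 75.5 FPKM without NaCl and 215 and 118 FPKM with it. Each serk1-1 library with NaCl was thus below both control libraries of Col-0. DREB2A made up 51.5 to 73.6% of the sum in the Col-0 libraries and 77.5 to 85.4% in the serk1-1 libraries, while the share of DREB2C was 17.5 to 38.0% and 7.0 to 17.4%. These shares of the DREB2 sum do not overlap between the genotypes. Over aligned coding sequence the 3 DREB2 genes are 65.6 to 75.1% identical, with no identical run longer than 26 bases.

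**Figure D2:**
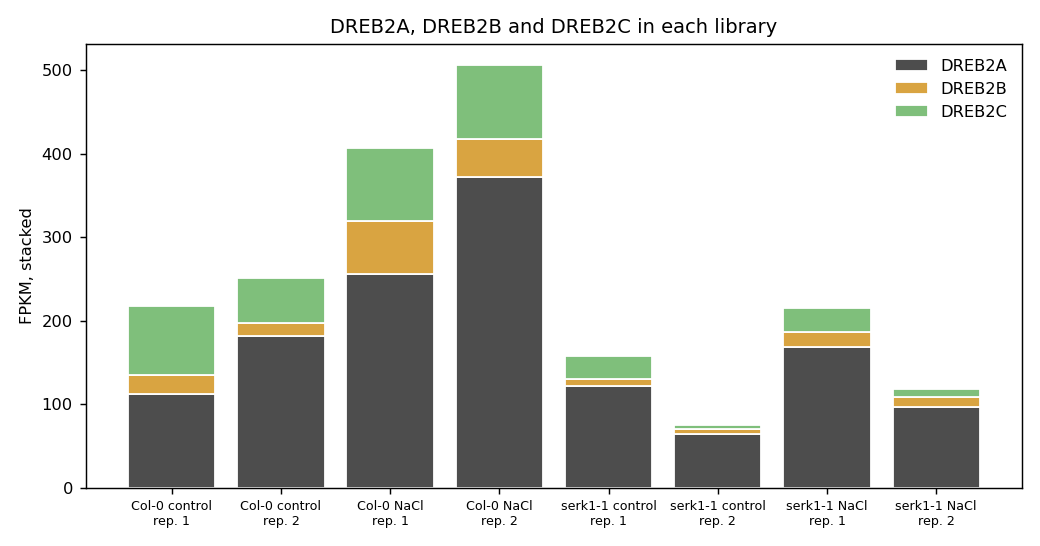
FPKM of DREB2A, DREB2B and DREB2C, stacked, in each of the 8 libraries (bars, 1 library each). The sums are 218 to 506 FPKM in Col-0 and 75.5 to 215 FPKM in serk1-1, and DREB2A is the largest part in every library.

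The DREB1 genes, the cold-inducible CBF cluster on chromosome 4, were at or near 0. DREB1A was listed at 0 in all 8 libraries. DREB1B was listed at 0 except for 0.06 FPKM in 1 Col-0 and 0.04 FPKM in 1 serk1-1 library, both with NaCl. DREB1C reached 0.35 FPKM in replicate 1 of Col-0 with NaCl, was at 0.06 to 0.12 FPKM in 4 more libraries and was listed at 0 in 3. These genes did not reach the 1 FPKM in 2 libraries needed for testing, and no difference was detectable. Their coding sequences are 87.3 to 87.5% identical to each other, so reads could be split among them. How reads matching several places were counted is not given in the sources used here.

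RAP2.6, an ERF known to respond to salt, osmotic stress and abscisic acid (chr1:16263805-16264945, plus strand), was low but separated by medium. It was at 0.06 and 0.12 FPKM in Col-0 control seeds and at 0.51 and 0.17 FPKM in serk1-1 control seeds. With NaCl the values were 1.79 and 1.68 FPKM in Col-0 and 2.81 and 1.82 FPKM in serk1-1. Every library with NaCl was above every control library, and in each medium both serk1-1 libraries were above both Col-0 libraries. RAP2.6 passed the filter on low values through its 4 NaCl libraries alone, so it could be tested only because it was high there.

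RAP2.4, a DREB-branch factor linked to light, drought and redox responses (chr1:29364072-29366207, plus strand), had the highest mean level of the 10 genes, 234 FPKM over all libraries. It was at 242 and 172 FPKM in Col-0 control seeds and at 187 and 220 FPKM with NaCl. In serk1-1 it was at 279 and 351 FPKM in control seeds and at 188 and 230 FPKM with NaCl. The serk1-1 control libraries were above the other 6, and the other 3 groups overlapped.

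ZAT10, also named STZ (chr1:9648021-9649323, minus strand), was at 23.0 and 14.1 FPKM in Col-0 control seeds and at 32.0 and 20.8 FPKM with NaCl. In serk1-1 it was at 7.19 and 6.83 FPKM in control seeds and at 13.0 and 10 FPKM with NaCl. All serk1-1 libraries were below all Col-0 libraries. Within Col-0 the media overlapped, and within serk1-1 they did not.

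ZAT12, also named RHL41 (chr5:24102814-24103794, plus strand), varied widely between replicates. Its level was 66.1 and 202 FPKM in Col-0 control seeds and 67.2 and 306 FPKM with NaCl, then 47.0 and 16.5 FPKM in serk1-1 control seeds and 40.1 and 17.3 FPKM with NaCl. The higher library was replicate 2 in both Col-0 groups and replicate 1 in both serk1-1 groups, with replicate ratios of 2.31 to 4.55. All serk1-1 libraries were again below all Col-0 libraries, and within each genotype the media overlapped.

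**Figure D3:**
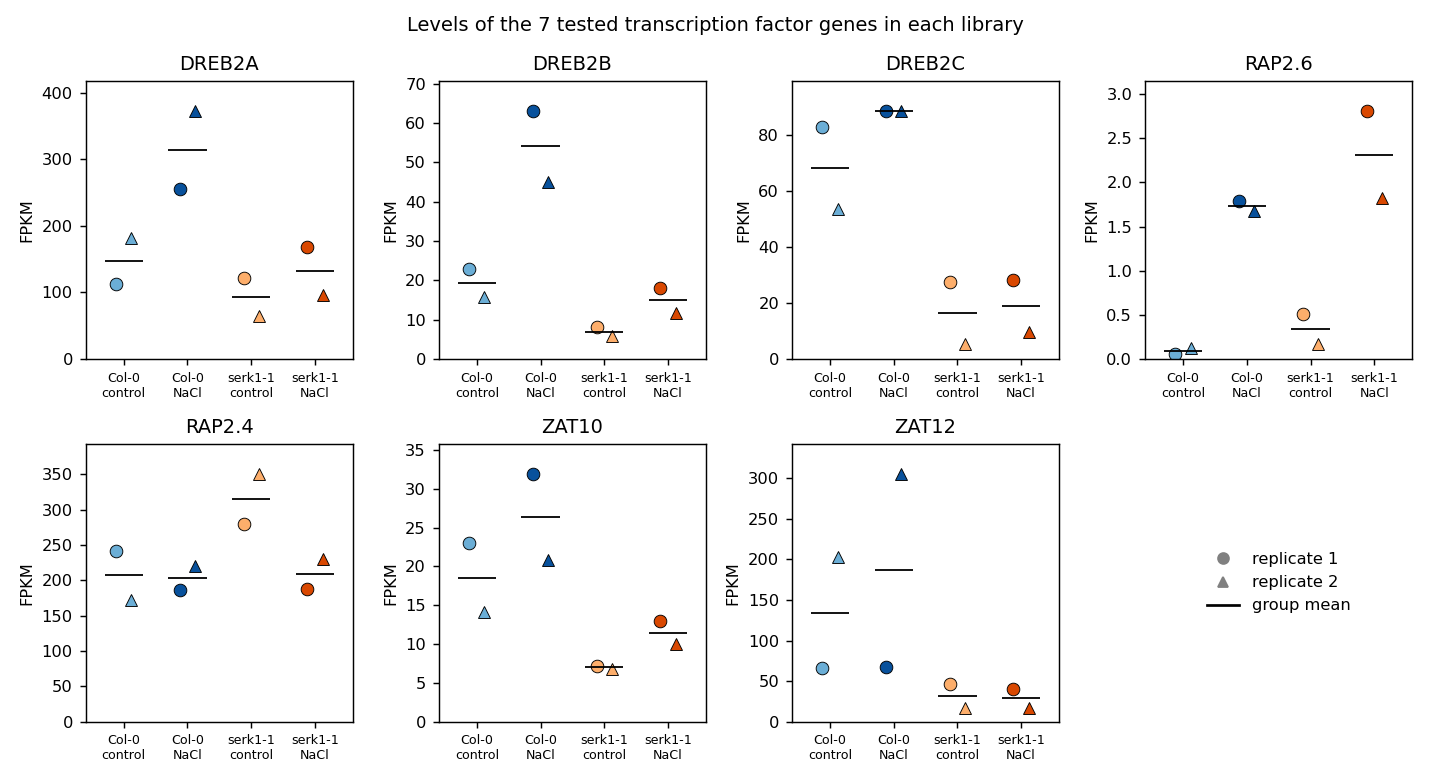
FPKM (y axis, linear from 0) of the 7 genes that could be tested, in each library by group (x axis); circles are replicate 1, triangles replicate 2, lines the mean of 2. DREB2C, ZAT10 and ZAT12 are higher in all 4 Col-0 than in all 4 serk1-1 libraries, and RAP2.6 is higher in all 4 NaCl than in all 4 control libraries.

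Salt in Col-0 seeds went with higher mean levels of DREB2A (2.14 times), DREB2B (2.80 times) and RAP2.6, but none of these passed the test over all genes. Differences were tested with limma on log2(FPKM + 1) over the 15336 genes that reached 1 FPKM in 2 or more libraries, and a gene was called at an adjusted p under 0.05 over all of them. The scale understates changes of low genes. For RAP2.6 the ratio of mean levels was 19.3, and with a pseudocount of 0.1 FPKM its salt difference was 3.29 in Col-0 and 2.54 in serk1-1 (limma adjusted p = 0.136 and 0.905). On it the salt difference was 1.44 ± 0.31 (SE, n = 2 against 2, limma adjusted p = 0.158) for DREB2B, 1.33 ± 0.29 (limma adjusted p = 0.161) for RAP2.6 and 1.11 ± 0.42 (limma adjusted p = 0.383) for DREB2A. DREB2C (0.40 ± 0.71), ZAT10 (0.49 ± 0.31), ZAT12 (0.31 ± 0.86) and RAP2.4 (-0.01 ± 0.25) had limma adjusted p between 0.640 and 0.992. None of the 7 genes tested was called, as against 7 of all genes (0.0456%). At an unadjusted p under 0.05 there were 3 of the 7, DREB2A, DREB2B and RAP2.6, and 11.3% of all genes. The libraries with NaCl were above those without, with no overlap, in 4 of the 7 genes, the DREB2 genes and RAP2.6, and in 19.7% of all genes. Since RAP2.6 entered the test through its NaCl libraries, these counts of 7, and its own salt tests here and below, do not support a salt response.

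Salt in serk1-1 seeds gave no difference that passed in any of the 7 genes. DREB2B was 2.15 times higher in mean level with NaCl, a log2 difference of 0.99 ± 0.31 (limma adjusted p = 1.0). RAP2.6 differed by 1.30 ± 0.29 (limma adjusted p = 0.783), ZAT10 by 0.63 ± 0.31 and DREB2A by 0.52 ± 0.42, while RAP2.4 was lower with NaCl by -0.59 ± 0.25. limma called none of the 7 and none of all genes (0.0%). At an unadjusted p under 0.05 there were 3 of the 7, DREB2B, RAP2.6 and RAP2.4, and 4.31% of all genes. RAP2.6 counts in these numbers only through its NaCl libraries. With NaCl, 3 of the 7 were higher with no overlap, DREB2B, RAP2.6 and ZAT10, as were 13.7% of all genes. RAP2.4 was lower with no overlap, as were 21.4% of all genes.

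Whether the salt difference itself differed between genotypes was tested directly, as serk1-1 minus Col-0. It was -0.59 (95% interval -1.97 to 0.79) for DREB2A, -0.45 (-1.48 to 0.58) for DREB2B, -0.58 (-1.39 to 0.24) for RAP2.4 and 0.14 (-0.87 to 1.15) for ZAT10. For RAP2.6 it was -0.03 (-0.98 to 0.93), and for DREB2C (0.00, -2.36 to 2.35) and ZAT12 (-0.39, -3.23 to 2.45) the intervals were wider than a 4-fold change either way. None of the 7 genes and none of all genes (0.0%) was called, and at an unadjusted p under 0.05 there was none of the 7 and 1.08% of all genes. These intervals leave room for sizeable differences, so they do not show that the genotypes respond alike.

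Averaged over both genotypes (4 libraries against 4, a comparison added after the values were seen), the salt difference was 1.31 ± 0.20 for RAP2.6 (limma adjusted p = 0.0595) and 1.22 ± 0.22 for DREB2B (limma adjusted p = 0.0754). Neither was called, against 0.274% of all genes. With libraries rescaled by the median of gene ratios DREB2B was called (limma adjusted p = 0.0229), as was RAP2.6 (limma adjusted p = 0.0275), which was tested only because it was high with NaCl. For the same reason nothing is read from the count of genes higher with NaCl without overlap over all 8 libraries, which was RAP2.6 alone of the 7 and 2.54% of all genes.

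**Figure D4:**
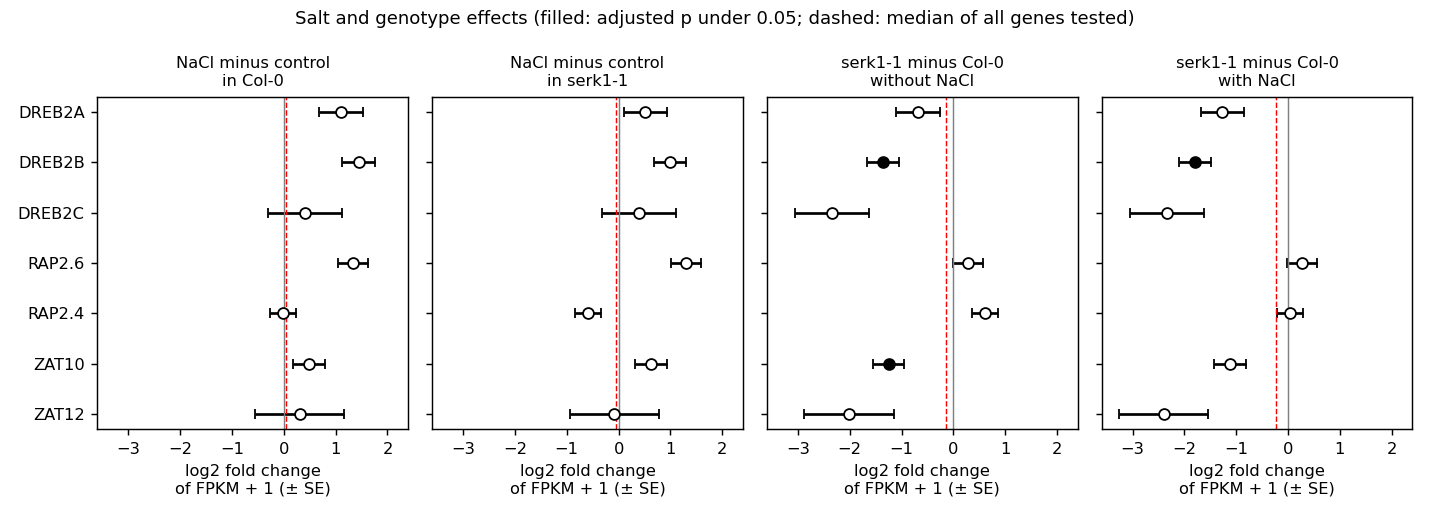
Log2 fold change of FPKM + 1 with its standard error (x axis) for the 7 tested genes in the 2 salt and 2 genotype comparisons (2 libraries against 2 each); filled points have an adjusted p under 0.05. Filled points are DREB2B in both genotype comparisons and ZAT10 without NaCl; dashed lines are the median of all genes, between -0.24 and 0.05.

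Without NaCl, serk1-1 seeds had lower DREB2B and ZAT10 transcript levels than Col-0 seeds. DREB2B was 2.79 times lower in mean level, a log2 difference of -1.35 ± 0.31 (SE, n = 2 against 2, limma adjusted p = 0.0365), and ZAT10 was 2.65 times lower, at -1.25 ± 0.31 (limma adjusted p = 0.0423). DREB2C at -2.34 ± 0.71 (limma adjusted p = 0.0740) and ZAT12 at -2.01 ± 0.86 (limma adjusted p = 0.164) had larger mean differences that did not pass, and their replicates differed more. DREB2A was at -0.68 ± 0.42, RAP2.4 at 0.61 ± 0.25 and RAP2.6 at 0.29 ± 0.29. With no overlap, 4 of 7 genes were lower, as were 34.9% of all genes, and RAP2.4 and RAP2.6 were higher, as were 25.6%. RAP2.6 was at no more than 0.51 FPKM in these libraries. Lower calls were 2 of 7, as against 5.07% of all genes. Neither call held without any one of the 4 libraries compared, with limma adjusted p from 0.0624 (without serk1-1 control replicate 1) to 0.241 (without serk1-1 control replicate 2) for DREB2B, and from 0.0758 (without Col-0 control replicate 2) to 0.235 (without serk1-1 control replicate 2) for ZAT10. For ZAT10 it was also lost without serk1-1 replicate 1 or 2 with NaCl (0.0642 and 0.0650), and with no filter on low genes DREB2B stood at 0.0689 and ZAT10 at 0.0789. DREB2C moved between -3.43 (without serk1-1 control replicate 1, limma adjusted p = 0.0365) and -1.25 (without serk1-1 control replicate 2). In bulk seeds, fewer cells that express a gene and less RNA per cell cannot be told apart.

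With NaCl, DREB2B was 3.63 times lower in serk1-1 than in Col-0, a log2 difference of -1.80 ± 0.31 (limma adjusted p = 0.0279). It was the 1 lower call of the 7, as against 4.14% of all genes. ZAT10 at -1.11 ± 0.31 (limma adjusted p = 0.0715), DREB2C at -2.34 ± 0.71 (limma adjusted p = 0.0862), DREB2A at -1.27 ± 0.42 (limma adjusted p = 0.104) and ZAT12 at -2.40 ± 0.86 (limma adjusted p = 0.123) did not pass. Leaving out 1 library moved ZAT12 between -3.48 (without Col-0 replicate 1 with NaCl) and -1.31 (without Col-0 replicate 2 with NaCl). RAP2.6 (0.26 ± 0.29) and RAP2.4 (0.04 ± 0.25) differed by less than their standard errors in this medium. All 5 DREB2 and ZAT genes were lower with no overlap, as were 36.8% of all genes, and RAP2.6 alone was higher with no overlap, as were 19.1%. The DREB2B call was lost without Col-0 replicate 1 with NaCl (limma adjusted p = 0.116), without serk1-1 replicate 1 (0.0617) or 2 (0.227) with NaCl, and with no filter (0.0520). The salt and genotype comparisons share libraries, so their values are not independent of each other.

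Over both media together (4 libraries against 4, again added after the values were seen), the 3 DREB2 and 2 ZAT genes were lower in serk1-1. The log2 differences were -2.34 ± 0.50 for DREB2C (limma adjusted p = 0.0138), -2.21 ± 0.61 for ZAT12 (limma adjusted p = 0.0316), -1.58 ± 0.22 for DREB2B (limma adjusted p = 0.00355), -1.18 ± 0.22 for ZAT10 (limma adjusted p = 0.00811) and -0.97 ± 0.30 for DREB2A (limma adjusted p = 0.0430). Lower calls were 5 of 7, as against 18.9% of all genes, and the median of the 7 was -1.18, as against -0.19 for all genes. DREB2C, ZAT10 and ZAT12 were lower in all 4 serk1-1 libraries than in all 4 Col-0 libraries, as were 20.4% of all genes. The calls of DREB2B, DREB2C and ZAT10 remained without any one library. That of DREB2A remained in 2 of 8 such fits (limma adjusted p = 0.0281 to 0.140) and that of ZAT12 in 4 of 8 (0.0188 to 0.107). Rescaling by the median of ratios moved the median of all genes by 0.19, and the calls of DREB2A (-0.75, limma adjusted p = 0.114) and ZAT12 (-1.99, limma adjusted p = 0.0535) ended under it. In that scaling 53.0% of all calls were higher in serk1-1, as against 38.6% without it, and with NaCl alone 49.6% as against 34.0%.

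Some tissue markers moved with genotype beside these genes. The 8 seed storage and maturation markers summed to 4843 to 16307 FPKM in the Col-0 libraries and to 28211 to 59637 FPKM in the serk1-1 libraries, with none listed at 0. Over both media 7 of the 8 were called higher in serk1-1, as were 11.9% of all genes. Of the 2 endosperm markers, which summed to 212 to 271 FPKM in Col-0 and 1385 to 2003 FPKM in serk1-1, EPR1 was called higher (3.01 ± 0.17) and made up most of the sum, while MAN7 was at -0.21 ± 0.20 (limma adjusted p = 0.449). The 3 leaf and seedling markers summed to 63.0 to 83.6 FPKM in Col-0 and 261 to 373 FPKM in serk1-1, nearly all of it RBCS1A, which was called higher (1.99 ± 0.16). CAB1 was at -0.01 ± 0.39 (limma adjusted p = 0.991), and RBCS1B was at 0.05 FPKM in 1 library and listed at 0 in the other 7. The 2 pollen markers summed to at most 0.75 FPKM, 1 of them at 0 in all libraries. The seeds thus held the storage transcripts that the tissue label implies. FPKM are shares of a library, so a larger share of storage transcripts lowers the others. The part of these markers in the genotype differences was not tested.

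Genes quickly induced by touch and wounding, several of which are known to rise together with ZAT10 and ZAT12, were called lower in serk1-1 for 9 of 14 tested over both media, as against 18.9% of all genes. The list median was -0.83, as against -0.19 for all genes. In the single media, 2 of 14 were called lower without NaCl (5.07% of all genes) and 1 with NaCl, a share near the 4.14% of all genes. None was called higher, but CML38, a calmodulin-like gene, was at 0.70 ± 0.44 over both media (limma adjusted p = 0.253). Under median-of-ratios scaling 7 of the 14 were called lower over both media. WRKY40, ERF5, CAF1a and BAP1 reached 1 FPKM in Col-0 libraries alone. TCH2 reached it outside Col-0 only in serk1-1 control replicate 1 (1.57 FPKM). These genes could be tested only because they were high in Col-0. WRKY40, ERF5 and TCH2 are among the 9, and WRKY40 is among the 2 without NaCl. The counts and median of this list, and the TCH2 call below, therefore do not support a lower level in serk1-1. WRKY33, a defence regulator, was lower by -1.26 ± 0.26 (limma adjusted p = 0.0278) without NaCl and -1.54 ± 0.26 (limma adjusted p = 0.0264) with it. JAZ1, a jasmonate signalling repressor, was lower by -2.04 ± 0.40 (limma adjusted p = 0.00998) and TCH2, a calmodulin-like protein, by -1.96 ± 0.48 (limma adjusted p = 0.0205), both over both media. TCH4, a cell wall xyloglucan enzyme, and ERF4, an ERF repressor, were lower over both media by -1.77 ± 0.44 (limma adjusted p = 0.0214) and -1.73 ± 0.40 (limma adjusted p = 0.0178). Their part in the ZAT10 and ZAT12 values was not tested.

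Close relatives of the DREB genes and of RAP2.4 and RAP2.6 did not share 1 direction. Of the other DREB1 and DREB2 genes, 4 of 8 could be tested, with 1 called higher and 1 lower in serk1-1 in each medium. Among all genes 6.0% were called higher and 5.07% lower without NaCl, and 2.13% and 4.14% with it. DREB19, a DREB2 relative induced by salt and drought, was at 64.8 and 63.6 FPKM in Col-0 control seeds and 145 and 115 FPKM with NaCl, against 20.97 to 31.8 FPKM over the 4 libraries of serk1-1. It was lower by -1.33 ± 0.25 without NaCl (limma adjusted p = 0.0223) and -2.28 ± 0.25 with it (limma adjusted p = 0.0127). AT1G75490, in contrast, was higher in serk1-1 by 2.21 ± 0.26 without NaCl (limma adjusted p = 0.0071) and 1.27 ± 0.26 with it (limma adjusted p = 0.0375), at 167 to 251 FPKM in serk1-1 and 27.1 to 106 FPKM in Col-0. Of the relatives of RAP2.4 and RAP2.6, 5 of 12 could be tested. Over both media 4 of these were below 0, with 1 called higher and 1 lower (11.9% and 18.9% of all genes). ABR1, a repressor of abscisic acid responses, was lower by -1.90 ± 0.37 (limma adjusted p = 0.0246) and -2.03 ± 0.37 (limma adjusted p = 0.0310) without and with NaCl. AT1G36060 was higher by 1.53 ± 0.32 (limma adjusted p = 0.0283) and 1.41 ± 0.32 (limma adjusted p = 0.0466). The latter call was lost with NaCl under median-of-ratios scaling. Of the other ZAT and AZF zinc finger genes, 4 of 12 could be tested. All 4 were below 0 over both media, with a median of -1.18 (-0.19 for all genes), though ZAT6 was only at -0.12 ± 0.36. Called lower were 2 of the 4 (18.9% of all genes). ZF2 (AZF2) was at -1.72 ± 0.34 (limma adjusted p = 0.0105). The C2H2 gene AT3G46080 was called in both media, at 3.68 to 6.28 FPKM in Col-0 and 0 to 0.73 FPKM in serk1-1. It and ZF3 reached 1 FPKM in Col-0 alone, so nothing is read from its calls or from these counts.

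Regulators upstream of the DREB genes were tested for 14 of 17. Without NaCl 1 was called higher and 2 lower in serk1-1 (6.0% and 5.07% of all genes). With NaCl it was 1 each way (2.13% and 4.14%), a share of lower calls near that of all genes. Over both media 1 was called higher and 6 lower (11.9% and 18.9%), with a list median of -0.34 (-0.19 for all genes). Under median-of-ratios scaling 4 were lower. PIF7, among the 6, reached 1 FPKM only in Col-0 with NaCl, so that count is not read as a result. ABF4, a bZIP factor that binds the ABRE in abscisic acid signalling, was higher by 2.23 ± 0.25 (limma adjusted p = 0.00573) without NaCl and 1.37 ± 0.25 (limma adjusted p = 0.0295) with it. HSFA1D, a heat shock factor, was lower by -1.39 ± 0.30 (limma adjusted p = 0.0312) and -1.52 ± 0.30 (limma adjusted p = 0.0351). CAMTA2 (AT5G64220), which binds the CGCG core, was lower by -1.21 ± 0.24 without NaCl (limma adjusted p = 0.0250). Among 6 partners and ubiquitin ligases of DREB2A protein, RCD1, which binds DREB2A and limits it, was lower with NaCl by -1.44 ± 0.32 (limma adjusted p = 0.0439). It was the 1 lower call of the 6 with NaCl (4.14% of all genes), and none was called without NaCl (5.07% called lower). Over both media 2 of the 6 were called lower (18.9% of all genes), RCD1 and PFT1. Under median-of-ratios scaling the call of PFT1 was lost (limma adjusted p = 0.195).

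Most of the known DREB target genes listed here were too low to be tested. Of 14 targets, 8 were below the filter, COR15A, COR15B, KIN1, KIN2, ERD10, GOLS3, COR413IM1 and HSFA3, and none of these was above 0.78 FPKM in any library. LEA14, a late embryogenesis protein gene, was at 49.4 and 56.6 FPKM in Col-0 control seeds and 160 and 157 FPKM with NaCl. In serk1-1 it was at 126 and 116 FPKM in control seeds and 300 and 215 FPKM with NaCl. It was higher with NaCl over both genotypes (1.31 ± 0.15, limma adjusted p = 0.0335) and higher in serk1-1 without NaCl (1.18 ± 0.21, limma adjusted p = 0.0194). With NaCl its genotype difference of 0.68 ± 0.21 did not pass (limma adjusted p = 0.0905). LTI30, a dehydrin, was at 44.9 and 45.8 FPKM in Col-0 control seeds and 259 and 152 FPKM with NaCl, a difference of 2.10 ± 0.56 that did not pass (limma adjusted p = 0.215). In serk1-1 LTI30 was at 38.9 and 14.7 FPKM in control seeds and 116 and 44.3 FPKM with NaCl. Its genotype difference over both media, -1.17 ± 0.39, did not pass either (limma adjusted p = 0.0587). Of the 6 targets tested, 3 were above and 3 below 0 for genotype over both media, with a median of -0.03. COR47, among the 3 below 0 (-1.39 ± 0.53), reached 1 FPKM outside Col-0 only in serk1-1 control replicate 1 (1.04 FPKM). It could be tested only because it was high in Col-0, so nothing is read from this split or its median. LEA14 was the 1 called, higher, as were 11.9% of all genes. RD29A, listed as LTI78, was at 0.19 to 2.98 FPKM.

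Of 7 oxidative stress genes linked to ZAT10 and ZAT12, 5 were tested, and 2 were called lower in serk1-1 in each medium, as against 5.07% of all genes without NaCl and 4.14% with it. APX1, a cytosolic ascorbate peroxidase, was lower by -2.20 ± 0.38 (limma adjusted p = 0.0187) without NaCl and -2.11 ± 0.38 (limma adjusted p = 0.0306) with it. FSD1, an iron superoxide dismutase, was lower by -1.51 ± 0.28 (limma adjusted p = 0.0227) and -1.40 ± 0.28 (limma adjusted p = 0.0367), and it was also lower with NaCl over both genotypes (-1.74 ± 0.20, limma adjusted p = 0.0339). With median-of-ratios scaling 1 of the 5 was called lower with NaCl.

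**Figure D5:**
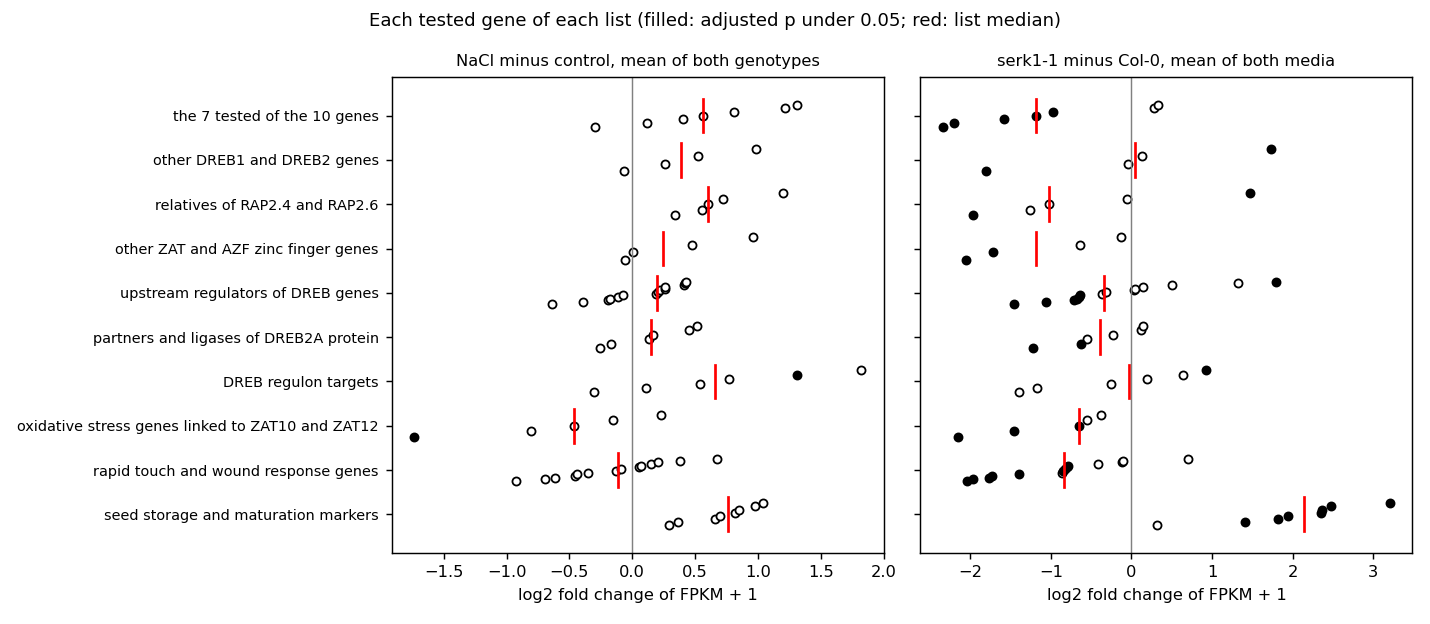
Log2 fold change of FPKM + 1 (x axis) of each tested gene by list (y axis), for salt averaged over genotypes (left) and genotype averaged over media (right); points are genes, filled at an adjusted p under 0.05, and red lines are list medians. In the right panel 5 of the 7 genes and 9 of 14 touch and wound genes are filled below 0, and 7 of 8 seed markers above 0. WRKY40, ERF5 and TCH2, among the 9, passed the filter on low values only because of Col-0 libraries, as did AT3G46080 and PIF7 in other lists.

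The genes most like each of these in pattern were taken by the Pearson correlation of log2(FPKM + 1) over the 8 libraries, among all genes tested. For DREB2A they were AT5G03990 (0.990), AT3G05990 (0.987) and FIB (0.981), and for DREB2B ALB4 (0.994), AT4G11560 (0.991) and PROT2 (0.990), a proline transporter. For DREB2C they were ETL1, AT3G53940 and FH6 (0.989 to 0.990), for RAP2.4 KUOX1, AT1G63110 and HA11 (0.902 to 0.923), and for ZAT10 COBL7, DWA3 and KAK (0.990 to 0.993). ZAT12, with its opposite replicate order in the 2 genotypes, was most like AT4G10925 (0.991), Hop2 (0.987) and BIL4 (0.983). These values describe 8 libraries that share groups and replicate numbers.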

How the data were processed

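Total RNA of whole imbibed seeds was sequenced in 8 paired-end libraries (TruSeq, Illumina), per the labels' protocols. The deposited values are FPKM per gene, per the submitters' processing notes the output of the authors' Cufflinks 2.1.1, with quality control in FastQC 0.10.1 and reads mapped to TAIR10 by TopHat2. The annotation, strand setting and treatment of multiply matching reads were not given in the sources used here. Depth in fragments is unknown: low values were checked for steps of whole fragments, and the most frequent ratio between 2 libraries was shared by 5.71 to 13.85% of low genes, so whole reads were not recovered. Genotype was taken from the genotype label, since titles of serk1-1 samples also say wild type. p-values measure only the spread between these samples.

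The 15336 genes that reached 1 FPKM in 2 or more libraries were fitted as log2(FPKM + 1) in limma 3.58.1 (R 4.3.3) with 4 group means, a mean-variance trend and 4 residual degrees of freedom. p-values were two-sided and Benjamini-Hochberg adjusted over all genes tested. Values are relative to the library total; 32815 of 33279 loci were matched to a TAIR10.1 table for names. Coordinates and promoters are from RefSeq TAIR10.1. Python 3.11.15 with matplotlib 3.10.9 drew figures. The scripts were tested on simulated data.

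The genes described, the lists and the averaged comparisons were chosen with earlier results of these data known. Of each list, up to 4 called genes with the largest change were named, or the 2 most abundant where none was called, per comparison. Exceptions chosen after their values were seen are RD29A, LTI30, COR47, CML38, MAN7, CAB1, RBCS1B, ERF5, CAF1a, BAP1, PIF7, ZF3 and ZAT6. Genes of like pattern were the 3 with the highest correlation, for those of the 10 whose mean reached 5 FPKM. Alternatives were a pseudocount of 0.1, no filter, median-of-ratios scaling, a block for the replicate number and fits without each library.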

Additional observations from a re-analysis of the deposited data

How the results depend on the processing

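Of 588 values of the 7 tested genes under alternatives, 514 kept their direction and side of the threshold. With no filter on low values, none of the 7 was called for genotype without NaCl (0) or with it (0), and 3 over both media; more genes were then adjusted over. With median-of-ratios scaling 2 were called for salt over both genotypes and 3 for genotype over both media. Leaving out each library gave 0 to 2 calls for genotype without NaCl, 0 to 1 with NaCl and 3 to 5 over both media.

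The difference of the salt effects changed sign for DREB2C with a pseudocount of 0.1 (0.039) and with scaling (0.13), and for RAP2.6 with scaling (0.15). Values that changed sign when a library was left out were, in salt in Col-0, RAP2.4 (-0.26 to 0.23) and ZAT12 (-0.78 to 1.39); in salt in serk1-1, ZAT12 (-0.81 to 0.65) and DREB2C (-0.69 to 1.49); in genotype with NaCl, RAP2.4 (-0.11 to 0.18). In the difference of the salt effects they were DREB2C (-1.09 to 1.08), RAP2.6 (-0.24 to 0.19), ZAT10 (-0.20 to 0.47) and ZAT12 (-1.47 to 0.70), and in salt over both genotypes ZAT12 (-0.43 to 0.66) and DREB2C (-0.14 to 0.95). None of these was called, and the cause was not tested.

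Among all genes, calls for salt in Col-0 were 7, with 2 at the lower pseudocount, 24 with scaling and 0 to 38 without a library; for salt in serk1-1 they were 0, with 2, 1 and 0 to 2. Genotype calls were 1697 without NaCl (1037 with no filter, 13 to 1889 without a library), 962 with NaCl (469, and 2 to 672) and 4722 over both media (1978 to 5389). Salt over both genotypes had 42 calls (3 with no filter, 172 with scaling, 0 to 79), and the difference of the salt effects 0 (0 to 2).

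Libraries of different groups share replicate numbers, but no label ties a number to a batch. Replicate differences correlated between groups at 0.397 to 0.720 over the 6 pairs of groups. With the replicate number as a block, 2 of the 7 genes were called for salt in Col-0 (DREB2B and RAP2.6, against 0 without the block), 3 for genotype without NaCl (DREB2C beside DREB2B and ZAT10), 4 for genotype with NaCl (DREB2A, DREB2B, DREB2C and ZAT10) and 3 for salt over both genotypes (DREB2B, RAP2.6 and ZAT10). Of the 15336 genes tested, calls under the block were 1101 and 12 for salt in Col-0 and serk1-1, and 6153 and 5869 for genotype without and with NaCl. They were 2168 for salt over both genotypes and 8681 for genotype over both media. RAP2.6 counts in the salt calls only through its NaCl libraries, where it was high. Calls among all genes rose along with those of the 7, so these counts are not read as a result about the 7.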
